A study of Mus musculus with 16 samples.

Results

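The response of *Lrrc10*-/- hearts to myocardial infarction (MI) was read from the ventricles of 8 of the 16 sequenced mice, 4 *Lrrc10*-/- mice post-MI (KO MI, numbered 1, 2, 3 and 7 in the labels) and 4 *Lrrc10*-/- mice after sham surgery (KO SH, numbered 1 to 4). Genes entered the comparison where the expected counts summed to at least 10 in KO MI and to at least 10 in KO SH, and 20879 of the 51912 genes of the table did so. All 8 mice lacked *Lrrc10* in every cell from conception, on a C57BL/6 background, so the comparison is of an injury within 1 genotype. MI was made by ligating the left anterior descending coronary artery on postnatal day 1, and the ventricles, from above and below the ligature, were taken 7 days later. Sham mice had the same anesthesia and a chest incision that was closed without exposing the heart or tying the artery. Exposure of the heart is thus, with the ligation, part of the difference between the groups. The other 8 libraries were of C57BL/6J WT mice after the same operations (WT SH and WT MI, 4 each), and serve here for the shared estimate of spread and for the final comparison.

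The neonatal mouse heart can rebuild muscle after injury on postnatal day 1, because its cardiomyocytes still complete the cell cycle. The repair also draws on macrophages that clear debris, on fibroblasts that lay down a temporary matrix of fibronectin and collagens, and on the epicardium, while the surviving myocardium reactivates fetal and stress genes such as those of the natriuretic peptides. LRRC10 is a leucine-rich repeat protein of cardiomyocytes that binds actin.

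*Lrrc10* had 0 counts in all 8 KO libraries. Depth ran from 33783874 counts in KO MI 7 to 50123038 in KO SH 3, at which 3 counts, the most that a count of 0 in a library allows, correspond to between 0.0599 and 0.0888 CPM, the usual scale of a count over its library's total. Levels below are CPM of the library size scaled by TMM, and that limit covers counting error only. The ribosomal transcript *mt-Rnr2* took 37.1% to 37.6% of the counts in KO SH and 29.8% to 35.04% in KO MI, the lowest share being that of KO MI 2. Defining cardiomyocyte genes were abundant throughout, with a summed level of the 17 sarcomere genes of 73292 to 75481 CPM in KO SH and 70556 to 76115 CPM in KO MI. Each KO group held 2 libraries with *Xist* above 100 CPM, as did WT MI, whereas WT SH held 0. By this measure the KO groups were balanced and the WT groups were not.

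The 4 KO MI libraries differed from each other. On log2 CPM the first principal component, with 30.5% of the variance among the 8 libraries, placed the KO SH libraries between -30.7 and -23.98, KO MI 1 and 7 at 7.76 and 6.32, KO MI 3 at 38.9 and KO MI 2 at 58.2. On the second component, with 18.8%, KO MI 7 lay at -60.4 and the other 7 libraries between -6.72 and 24.8. Genes used as markers of tissues outside the ventricle also differed between the KO MI libraries. The summed level of 22 skeletal muscle genes was 13.3 to 16.1 CPM in KO SH and 19.8, 119, 26.7 and 170.1 CPM in KO MI 1, 2, 3 and 7, while the 5 atrial genes summed to 10.8 to 24.7 CPM in KO SH and to 54.9, 58.3, 110.4 and 22.7 CPM in KO MI. The skeletal muscle sum was thus high in KO MI 2 and 7, and the atrial sum in KO MI 1, 2 and 3. Whether these sums came from other tissue in the sample or from the ventricle itself was not tested. For *Myh1*, *Myh3* and *Myh8*, among others, the paper proposes that the higher expression post-MI may be compensatory. Since the KO MI libraries differed, the number of calls in a list is also given without 1 library, or without KO MI 2 and 7 (an alternative chosen after seeing the data), where this moves it by more than 1.5 times. In lists with 2 calls or fewer in a direction such moves were of 1 or 2 calls where no count is given.

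**Figure D1:**
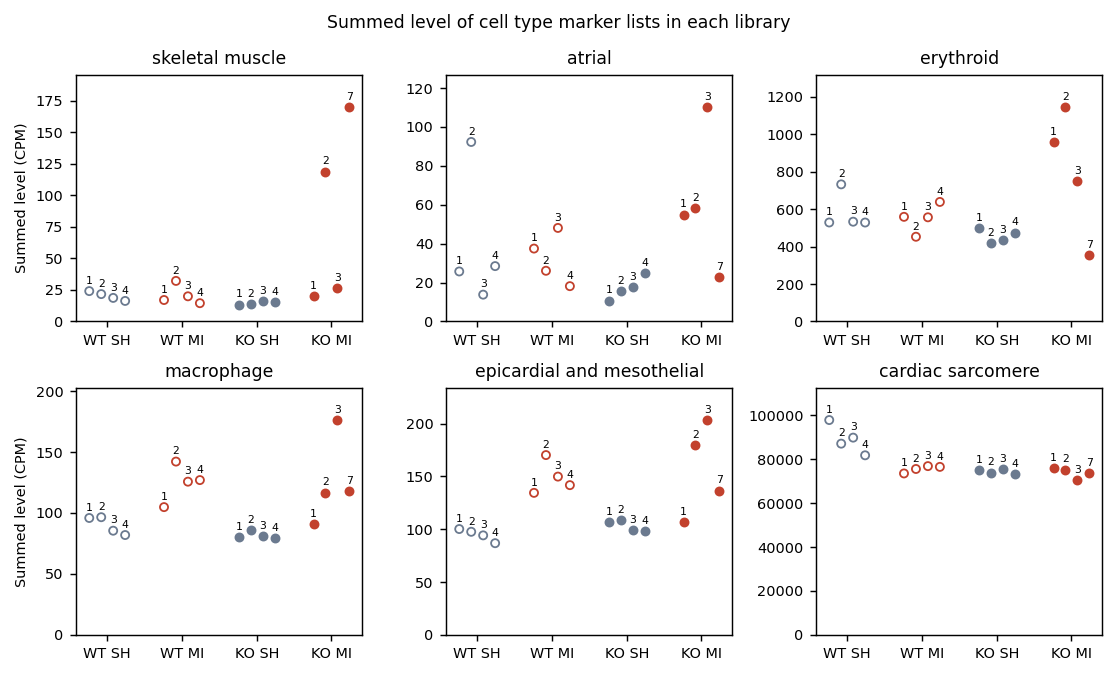
Summed level (CPM, axis from 0) of 6 marker lists in each of the 16 libraries; open points are WT, filled points KO, grey sham and red MI, and the digit over a point is the replicate number. The skeletal muscle sum is over 100 CPM only in KO MI 2 and 7, the erythroid sum of KO MI 7 lies below those of the other KO MI libraries, and the cardiac sarcomere sum of KO MI overlaps that of KO SH.

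Within *Lrrc10*-/- hearts 1491 genes, or 7.14% of those tested, were differentially expressed (DEGs) between KO MI and KO SH, taking as DEGs those past both limits, an adjusted p below 0.1 (Benjamini-Hochberg, edgeR's quasi-likelihood test) and a log2 fold change of 0.5 or more in either direction. Of these, 1072 (5.13% of the genes tested) were higher post-MI and 419 (2.01%) were lower. The median log2 fold change over all genes was -0.012. The rises were also the larger changes, since 419 DEGs rose at least 2-fold and 102 at least 4-fold, against 92 and 4 that fell as far. The 4 KO MI libraries lay above all 4 KO SH libraries for 699 of the higher DEGs and below them for 310 of the lower ones. Over all genes such separation was found for 7.44% upward and 7.05% downward. Without KO MI 2 the DEGs numbered 893, without KO MI 7 they numbered 2188, and without both 1291 (869 higher and 422 lower), of which 999 were among the 1491. With only the KO libraries in the fit there were 1147 DEGs (852 higher and 295 lower), 1123 of them among the 1491. The samples are whole ventricles, so a lower or higher level of a gene may reflect fewer or more cells of a type or a change in RNA per cell, which cannot be told apart.

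**Figure D2:**
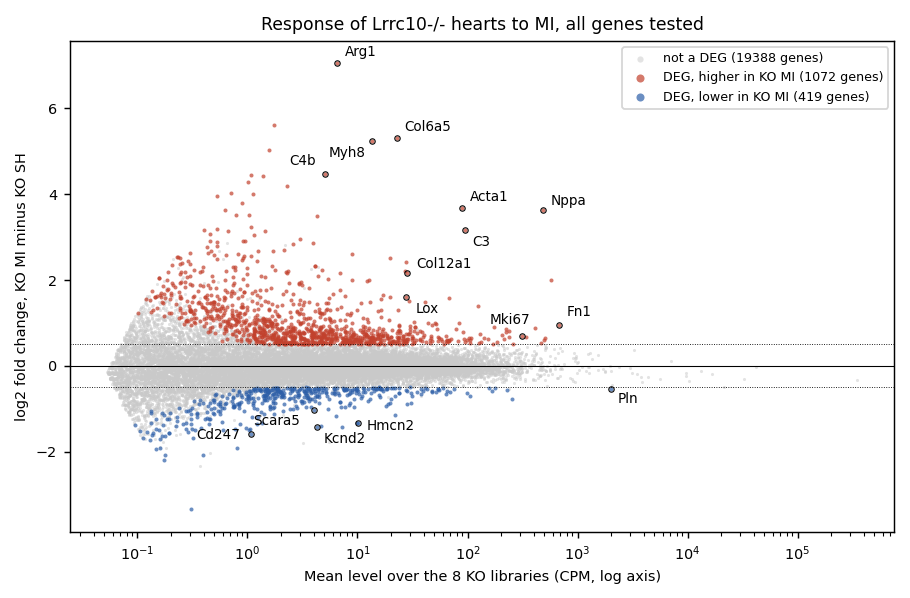
The log2 fold change of KO MI minus KO SH (vertical axis) against the mean level over the 8 KO libraries (CPM, log axis) for the 20879 genes tested; red points are the 1072 DEGs higher in KO MI, blue points the 419 lower, and dotted lines mark log2 fold changes of 0.5 and -0.5. Most of the largest changes are rises, led among the labelled genes by Arg1, Col6a5 and Myh8.

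Among protein-coding DEGs averaging 1 CPM or more over the 8 libraries, and with the groups fully apart, the largest rise was that of *Arg1*, arginase 1, an enzyme of wound macrophages. *Arg1* was at 0.135, 0.135, 0.0834 and 0.0262 CPM in KO SH and at 1.16, 3.31, 42.6 and 5.1 CPM in KO MI 1, 2, 3 and 7 (log2 fold change 7.06, SE 1.17, adjusted p = 0.00171 by edgeR). It lies on chromosome 10 of GRCm39 from 24791118 to 24803817 on the - strand. All 4 KO MI libraries were above KO SH, and KO MI 3 was far above the rest. *Col6a5*, a collagen VI chain, also had all 4 KO MI libraries above KO SH and KO MI 3 far above the rest, with 0.947, 0.729, 1.33 and 1.49 CPM in KO SH and 3.52, 7.72, 155 and 13.7 CPM in KO MI (log2 fold change 5.32, SE 0.97, adjusted p = 0.00285 by edgeR), or 2.86 (adjusted p = 0.00245, edgeR) without KO MI 3. The other 8 leading rises were *Myh8* (log2 fold change 5.25), *C4b* (4.47), *Myl1* (4.19), *Gpnmb* (4.0), *Acta1* (3.68), *Nppa* (3.63), *Ccl6* (3.48) and *C1qtnf3* (3.23). They comprise muscle contractile genes (*Myh8*, *Myl1*, *Acta1*), a complement component (*C4b*), a natriuretic peptide (*Nppa*), a chemokine (*Ccl6*) and a macrophage glycoprotein (*Gpnmb*). Of these, *Myh8* and *Myl1* are genes of skeletal muscle. *Myh8* followed the skeletal muscle sum, with 1.58, 42.3, 3.37 and 58.4 CPM in KO MI 1, 2, 3 and 7.

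The largest falls were smaller. *Cd247* was at 1.94, 1.54, 1.04 and 1.89 CPM in KO SH and at 0.589, 0.374, 0.577 and 0.588 CPM in KO MI 1, 2, 3 and 7 (log2 fold change -1.59, SE 0.31, adjusted p = 0.00397 by edgeR), and this gene encodes the zeta chain of the T cell receptor. *Kcnd2*, a potassium channel subunit, fell by 1.43 on the log2 scale and is described with the channels below. The other 8 were *Ccl21a* (-1.35), a chemokine of lymphatic vessels, *Col28a1* (-1.34), *Asb15* (-1.33), *Hmcn2* (-1.32), *Slc9a2* (-1.18), *Asb14* (-1.16), *Dbh* (-1.13), the enzyme that makes noradrenaline in sympathetic nerves, and *Atp8b5* (-1.11). *Asb14* and *Asb15* belong to a family of ubiquitin ligase adaptors expressed in striated muscle. Both were lowest in KO MI 2, where *Asb15* was at 1.73 CPM against 11.2 to 16.2 CPM in KO SH.

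Genes of cell division rose together in the *Lrrc10*-/- hearts. Mitosis proceeds through a spindle checkpoint (*Bub1b*, *Ndc80*), the cyclin B kinase (*Ccnb1*) and the anaphase activator *Cdc20*, and is followed by cytokinesis, for which *Aurkb*, *Incenp*, *Prc1* and *Cit* build the midzone and the cleavage furrow. All 20 genes of the mitosis list and all 15 of the cytokinesis list were DEGs higher in KO MI, against 5.13% of all genes tested, with medians of 0.67 and 0.65 on the log2 scale. The range over the 35 genes was narrow, from 0.55 to 0.81. Both lists kept the direction in every heart, with mean levels of 0.47, 0.94, 0.67 and 0.39 above the KO SH mean for mitosis in KO MI 1, 2, 3 and 7 on the log2 scale. Without KO MI 2 the calls were 14 of 20 and 12 of 15, and without KO MI 2 and 7 they were 18 and 14.

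The promoters of the mitotic genes are shown for *Bub1b*, one of the 4 mitosis genes with the smallest p, and for *Aurkb* and the replication gene *Mcm3*, which were chosen after the values were seen, since all 3 hold letters that cell cycle promoters are known for. The other 3 of those mitosis genes, *Tpx2*, *Mki67* and *Ndc80*, held none of these letters in the 200 bases before the start, which are not printed. After its start *Mki67* held CCAAT at bases 3 to 7 and, on the other strand, 25 to 29. *Ndc80* held TTTGAA on the other strand at bases 36 to 41 after its start. Printed are the 200 bases before each start site of GENCODE M39 on GRCm39, 5′ to 3′ along the gene. They lie at chr2:118428484-118428683 (+ strand), chr11:68936267-68936466 (+ strand) and chr1:20890537-20890736 (- strand). Capitals mark CCAAT boxes on either strand (ATTGG on the other) and the cell cycle homology letters TTTGAA or TTCGAA on either strand.
Bub1b: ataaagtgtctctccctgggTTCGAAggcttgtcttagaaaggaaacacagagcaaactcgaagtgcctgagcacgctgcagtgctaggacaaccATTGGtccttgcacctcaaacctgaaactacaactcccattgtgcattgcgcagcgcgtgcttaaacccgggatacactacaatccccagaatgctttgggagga
Aurkb: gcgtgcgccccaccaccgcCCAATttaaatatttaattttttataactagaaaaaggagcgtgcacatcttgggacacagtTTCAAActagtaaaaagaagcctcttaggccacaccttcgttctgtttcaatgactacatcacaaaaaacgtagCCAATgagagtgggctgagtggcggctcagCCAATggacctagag
Mcm3: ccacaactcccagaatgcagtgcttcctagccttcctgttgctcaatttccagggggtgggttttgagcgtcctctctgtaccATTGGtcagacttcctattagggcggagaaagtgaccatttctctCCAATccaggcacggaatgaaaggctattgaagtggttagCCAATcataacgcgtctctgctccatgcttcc
*Bub1b* held 1 CCAAT box, on the other strand and 105 to 101 bases before the start, and *Aurkb* and *Mcm3* held 3 each. In the window from 250 bases before to 50 after the start, CCAAT was found in 23 of the 35 mitosis and cytokinesis promoters (65.7%), in 17 of the 24 DNA replication promoters (70.8%) and in 39.2% of the 14841 promoters of tested protein-coding genes. TTTGAA or TTCGAA was in 22 of the 35 (62.9%), in 3 of the 24 (12.5%) and in 15.9% of all. The E2F letters TTTGGCG or TTTCCCG were in 1 of the 35 (2.86%), in 11 of the 24 (45.8%) and in 7.45% of all. *Mcm3* held 1 match of each of the E2F spellings, both after its start and so outside the printed bases. Among all DEGs higher in KO MI the shares were 41.7%, 20.3% and 7.59%, and among those lower 36.5%, 17.6% and 3.86%. The letters AAGGTCA, a site of estrogen-related receptors, were in 3.95% of the higher, 4.29% of the lower and 3.64% of all, and TGANTCA, an AP-1 site, in 7.89%, 6.01% and 5.64%. Each motif was read on both strands, and a match is a description of letters only.

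*Mki67* was at 259, 241, 232 and 228 CPM in KO SH and at 345, 459, 381 and 360.5 CPM in KO MI 1, 2, 3 and 7 (log2 fold change 0.69, SE 0.086, adjusted p = 0.000456 by edgeR). *Mki67* encodes the proliferation antigen Ki-67, and every KO MI library was above every KO SH library, KO MI 2 being the highest. *Aurkb* was at 4.96, 5.02, 3.61 and 3.9 CPM in KO SH and at 6.16, 9.15, 8.31 and 5.61 CPM in KO MI 1, 2, 3 and 7 (log2 fold change 0.75, SE 0.16, adjusted p = 0.00739 by edgeR). Aurora B, its product, is the kinase of the midzone, and again the groups did not overlap. For *Ccnb1* the levels were 11.8, 12.5, 11.6 and 11.8 CPM in KO SH and 16.2, 25, 21 and 14.2 CPM in KO MI (log2 fold change 0.69, SE 0.14, adjusted p = 0.00535 by edgeR), and for *Cdc20* 6.83, 6.67, 5.65 and 6.36 CPM and 8.8, 12.1, 11 and 7.93 CPM (log2 fold change 0.65, SE 0.12, adjusted p = 0.00263 by edgeR). Both were lowest in KO MI 7 and highest in KO MI 2 within the group. *Bub1b*, whose promoter is given above, was at 16.6, 15.5, 14.5 and 15.5 CPM and 21.4, 25.9, 22.9 and 21.7 CPM (log2 fold change 0.56, SE 0.079, adjusted p = 0.000757 by edgeR). *Tpx2*, a spindle assembly factor, rose by 0.69, the checkpoint gene *Ndc80* by 0.72, *Cit* by 0.65, *Kif14* by 0.65, *Prc1* by 0.65 and *Incenp* by 0.64 on the log2 scale.

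Of 24 genes of DNA replication 5 were DEGs, all higher, and the other 19 did not reach the call although all 24 log2 fold changes were above 0 (median 0.39). Of the 24, 15 lay above KO SH in every KO MI library, against 7.44% of all genes. The calls numbered 3 without KO MI 2, 2 without KO MI 2 and 7, and 9 without KO SH 1 or without KO SH 2. The 5 were *Ticrr* and *Mcm10*, which act in origin firing, *Mcm3* of the replicative helicase, *Cdc6*, and *Tyms*, which makes thymidylate. *Ticrr* was at 3.88 to 4.55 CPM in KO SH and at 6.64, 9.57, 7.56 and 5.64 CPM in KO MI (log2 fold change 0.81, SE 0.14, adjusted p = 0.00246 by edgeR). Without KO MI 2, *Mcm3* fell below the fold change limit at 0.46 (adjusted p = 0.00583, edgeR), and *Tyms* at 0.42 (adjusted p = 0.0108, edgeR). Among 16 G1 cyclins, their kinases and CDK inhibitors only *Cdkn2d*, an inhibitor of CDK4 and CDK6, was a DEG (log2 fold change 0.61, SE 0.16, adjusted p = 0.0204 by edgeR), and without KO MI 2 it had 0.42 (adjusted p = 0.083, edgeR). The list had a median of 0.16, and its 1 call compares with 5.13% of all genes. Without KO MI 7 it held 4 calls. None of 12 p53 targets was a DEG (median -0.087), and the one with the smallest p, *Trp53inp1*, was at 27.9, 27.5, 25.2 and 27.4 CPM and 25.1, 18.3, 22.6 and 21.4 CPM (log2 fold change -0.30, SE 0.088, adjusted p = 0.034 by edgeR), below the fold change limit.

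**Figure D3:**
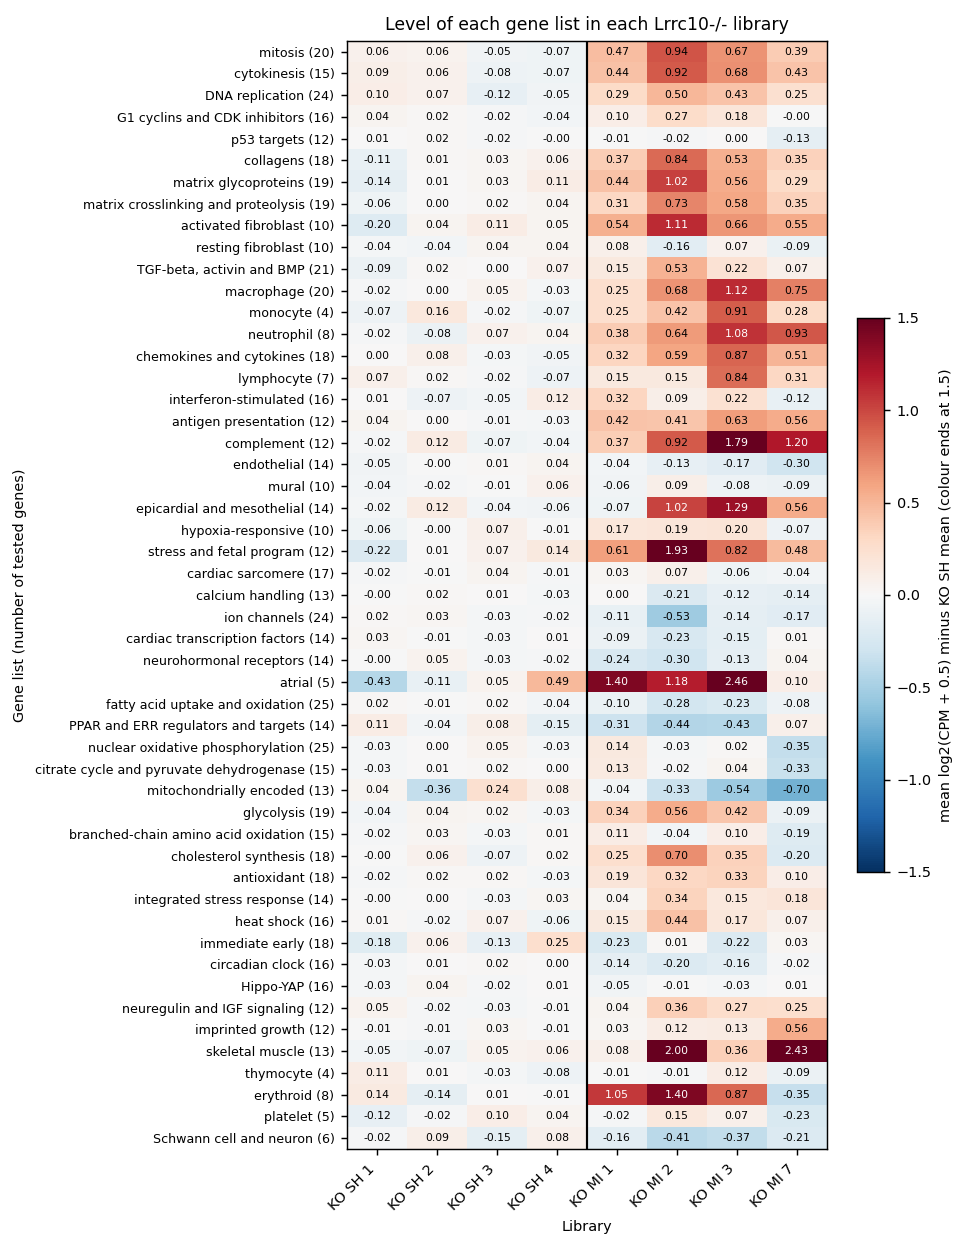
Mean log2(CPM + 0.5) of each gene list in each of the 8 KO libraries minus its mean over KO SH, printed in the cell and coloured red above and blue below 0 (colour ends at 1.5); the number of tested genes follows the list's name, and lists with fewer than 4 are not drawn. The cell division, matrix and macrophage lists are above 0 in all 4 KO MI libraries, while the glycolysis, cholesterol and erythroid lists are above 0 in KO MI 1, 2 and 3 and below 0 in KO MI 7.

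Genes of the extracellular matrix rose in all 3 matrix lists. Of 18 collagen genes 8 were higher in KO MI and none lower, against 5.13% and 2.01% of all genes (median 0.32), of 19 matrix glycoproteins 10 and none (median 0.62), and of 19 crosslinking and proteolysis genes 8 and 1 (median 0.47), with 13 higher in the last list without KO MI 7. *Col12a1* was at 7.19, 11, 10.5 and 12.5 CPM in KO SH and at 27.1, 89.95, 33.9 and 32.1 CPM in KO MI 1, 2, 3 and 7 (log2 fold change 2.16, SE 0.32, adjusted p = 0.000883 by edgeR). It encodes a fibril-associated collagen, and KO MI 2 was the highest library by a wide margin. The fibrillar collagen genes *Col1a1* and *Col1a2* rose by 0.65 and 0.68, with *Col1a1* at 367 to 418 CPM in KO SH and 532, 712, 632 and 576 CPM in KO MI. *Col14a1* rose by 0.53 and fell short of the limit without KO MI 2 or without KO MI 3, at 0.47 and 0.49.

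*Fn1*, which encodes fibronectin, was at 448, 449.6, 472 and 474 CPM in KO SH and 653, 1049, 1167 and 712 CPM in KO MI (log2 fold change 0.96, SE 0.13, adjusted p = 0.000736 by edgeR). The groups were apart, with KO MI 2 and 3 above KO MI 1 and 7. *Tnc*, tenascin C, a matrix protein of injury borders, was at 13.6, 16.4, 15.2 and 15.1 CPM and 30.7, 61.8, 39 and 41.5 CPM (log2 fold change 1.52, SE 0.17, adjusted p = 0.000273 by edgeR). *Postn*, periostin, was at 362 to 405 CPM and 595, 658, 559 and 562 CPM (log2 fold change 0.60, SE 0.064, adjusted p = 0.000273 by edgeR), and *Vcan*, versican, rose by 0.62. Among the modifying enzymes, *Lox*, which crosslinks collagen, was at 11.6, 14.1, 15.3 and 14 CPM in KO SH and 29.4, 69.5, 46.9 and 21.1 CPM in KO MI (log2 fold change 1.6, SE 0.25, adjusted p = 0.00107 by edgeR). *Loxl1*, the prolyl hydroxylase gene *P4ha3* and the metalloprotease gene *Adam12* rose by 0.68, 1.27 and 0.85. *Timp1*, an inhibitor of metalloproteases, was at 0.681 to 0.834 CPM and 1.54, 2.28, 2.58 and 1.39 CPM (log2 fold change 1.42, SE 0.25, adjusted p = 0.00243 by edgeR), whereas its relative *Timp4* was the only DEG of the 3 matrix lists that fell (-0.68), a call lost in 3 of the 8 fits without 1 library, with -0.55 (adjusted p = 0.135, edgeR) without KO MI 2 and -0.57 (adjusted p = 0.121, edgeR) without KO MI 3.

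Genes of activated fibroblasts rose while most markers of resting fibroblasts did not change past the thresholds. Of 10 activation genes 7 were higher, against 5.13% of all genes (median 0.76), and of 10 resting markers none was higher and 1 lower, against 2.01% (median 0.042). *Ltbp2* was at 1.49, 2.83, 2.81 and 2.91 CPM in KO SH and at 7.33, 20.1, 9.8 and 7.75 CPM in KO MI 1, 2, 3 and 7 (log2 fold change 2.17, SE 0.31, adjusted p = 0.000757 by edgeR). *Ltbp2* encodes a matrix protein of microfibrils, and its levels did not overlap between the groups. *Cthrc1*, a secreted protein of matrix-producing fibroblasts, was at 1.62 to 2.63 CPM and 4.79, 8.62, 4.6 and 3.5 CPM (log2 fold change 1.48, SE 0.23, adjusted p = 0.00119 by edgeR). *Runx1*, a transcription factor, rose by 1.3, and *Ckap4* by 0.72, or 0.47 (adjusted p = 0.0103, edgeR) without KO MI 2. *Fap*, also of the activation list, was at 10.9, 9.88, 10.1 and 10.8 CPM and 11.5, 8.13, 10.01 and 8.79 CPM. *Scara5*, a ferritin receptor of resting fibroblasts, was at 5.39, 5.86, 5.15 and 5.29 CPM in KO SH and 2.97, 1.32, 2.37 and 4.01 CPM in KO MI (log2 fold change -1.04, SE 0.20, adjusted p = 0.00438 by edgeR). In contrast *Pdgfra*, the receptor by which cardiac fibroblasts are recognized, was at 59.9 to 66.3 CPM and 49.9 to 73.8 CPM.

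Of 21 genes of TGF-β, activin and BMP signaling 5 rose, against 5.13% of all genes, and all 5 were ligands, *Inhba*, *Tgfb3*, *Gdf6*, *Bmp7* and *Bmp4*. No receptor, SMAD or inhibitor of the list was a DEG (list median 0.15). *Inhba*, the activin A subunit, was at 9.16, 9.23, 10.1 and 9.43 CPM and 18.7, 41.5, 17.5 and 15 CPM (log2 fold change 1.29, SE 0.22, adjusted p = 0.0023 by edgeR), and *Gdf6* at 0.646 to 1.21 CPM and 1.44, 9.88, 2.27 and 1.74 CPM (log2 fold change 2.2, SE 0.48, adjusted p = 0.00854 by edgeR). Both were highest in KO MI 2, without which *Inhba* had 0.85 (adjusted p = 0.000244, edgeR) and *Gdf6* 1.12 (adjusted p = 0.0105, edgeR). *Tgfb3* rose by 0.65, *Bmp7* by 0.67 and *Bmp4* by 0.60. Without KO MI 2 these were 0.49 (adjusted p = 0.00536, edgeR), 0.55 (adjusted p = 0.104, edgeR) and 0.36 (adjusted p = 0.152, edgeR), and the list held 2 calls. Without KO MI 7 it held 8 higher and 1 lower, and without both 2 higher and 1 lower.

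Genes rose in 7 of the 8 immune lists, and in each of these 7 the mean level was highest in KO MI 3. Macrophage genes were higher for 15 of 20 tested (median 1.01), against 5.13% of all genes, and none was lower. Their mean level above KO SH was 0.25, 0.68, 1.12 and 0.75 in KO MI 1, 2, 3 and 7. *Ctss* was at 5.39, 5.86, 5.59 and 5.89 CPM in KO SH and at 9.73, 13, 22.1 and 18.3 CPM in KO MI 1, 2, 3 and 7 (log2 fold change 1.47, SE 0.25, adjusted p = 0.00187 by edgeR). *Ctss* encodes cathepsin S, a lysosomal protease, and KO MI 3 and 7 were the highest. *Gpnmb*, *Lgals3* and *Trem2* belong to lipid-laden and phagocytic macrophages. *Gpnmb* was at 0.0677, 0.189, 0.104 and 0.157 CPM and 0.853, 2.09, 1.41 and 4.03 CPM (log2 fold change 4.0, SE 0.65, adjusted p = 0.00152 by edgeR), and *Lgals3* and *Trem2* rose by 2.79 and 1.74. *Timd4* and *Cd163*, markers of resident macrophages, were also DEGs that rose (2.49 and 1.69), and *Lyve1* and *Cd68* were not called.

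Complement was the immune list with the largest mean level in a single heart, 1.79 in KO MI 3 on the log2 scale, and 8 of its 12 genes rose (median 1.09), against the same 5.13%. *C3* was at 20.1, 24.4, 14.9 and 16.1 CPM in KO SH and at 26.6, 68.7, 457 and 129 CPM in KO MI 1, 2, 3 and 7 (log2 fold change 3.18, SE 0.65, adjusted p = 0.00564 by edgeR). *C3*, the central component, was in KO MI 1 little above the highest KO SH library and in KO MI 3 many times above, and without KO MI 3 it had 1.98 (adjusted p = 0.0227, edgeR). *C4b* was at 0.316, 0.648, 0.396 and 0.393 CPM and 2.11, 7.7, 17.7 and 11.2 CPM (log2 fold change 4.47, SE 0.56, adjusted p = 0.000513 by edgeR), although reads of *C4b* cannot be fully told from those of its near copy C4a. *Cfb*, an activator of the alternative pathway, rose by 2.67. Of 18 chemokine and cytokine genes 8 rose (median 1.0), and 5 without KO MI 2. *Ccl6* was at 0.564, 0.810, 0.688 and 0.759 CPM and 2.17, 7.34, 16.4 and 5.42 CPM (log2 fold change 3.48, SE 0.44, adjusted p = 0.000535 by edgeR), and *Ccl9*, *Il33* and *Il1b* rose by 2.84, 1.52 and 2.14. For *Il1b* KO MI 1, at 0.345 CPM, lay within the KO SH range of 0.229 to 0.621 CPM.

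Genes of neutrophil granules were higher for 6 of 8 tested, against 5.13% of all genes (median 1.56), led by *Camp* (2.04), *Ngp* (2.03), *Ltf* (1.7) and *S100a9* (1.49). *S100a9* was at 1.76, 1.59, 1.75 and 1.7 CPM in KO SH and at 3.05, 4.09, 6.93 and 5.1 CPM in KO MI 1, 2, 3 and 7 (log2 fold change 1.49, SE 0.31, adjusted p = 0.0064 by edgeR), with no overlap. Monocyte genes were higher for 3 of 4, with *Ccr2*, the receptor that brings monocytes to tissue, at 1.17 to 1.73 CPM and 2.13, 3.38, 5.25 and 2.94 CPM (log2 fold change 1.25, SE 0.25, adjusted p = 0.00544 by edgeR). *Plac8* rose by 1.59, and *F13a1* by 0.68, a call that was kept only without KO MI 1 or KO MI 7 when libraries were left out 1 at a time; without KO MI 3 it was 0.27 (adjusted p = 0.359, edgeR). The MHC class II genes *H2-Ab1*, *H2-Eb1*, *H2-Aa* and the invariant chain gene *Cd74* rose, and with *Psmb8* made up 5 of 12 antigen presentation genes (median 0.50), or 3 without KO SH 2 or KO SH 4. *Cd74* was at 0.943 to 1.16 CPM and 1.79, 2.01, 4.89 and 5.0 CPM (log2 fold change 1.74, SE 0.31, adjusted p = 0.00268 by edgeR). *Psmb8* (0.58) and *H2-Aa* (1.27) each lost the call in 5 of the 8 fits without 1 library, with 0.49 (adjusted p = 0.127, edgeR) without KO MI 1 and 1.01 (adjusted p = 0.21, edgeR) without KO MI 3. Of 7 lymphocyte genes 2 rose, among them the B cell gene *Ms4a1* (1.65), which was highest in KO MI 3 and without it was at 0.90 (adjusted p = 0.0578, edgeR). None of 16 interferon-stimulated genes was a DEG (median 0.19), and the smallest p was that of *Oasl2* (log2 fold change 0.41, SE 0.13, adjusted p = 0.056 by edgeR), which passed both limits without KO MI 2 and 7 at 0.52 (adjusted p = 0.0359, edgeR).

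The epicardium and mesothelium express keratins and uroplakins. Of their 14 genes 8 rose and none fell, against 5.13% and 2.01% of all genes (median 0.73), and the mean level was -0.065, 1.02, 1.29 and 0.56 in KO MI 1, 2, 3 and 7, so that KO MI 1 was not above the sham hearts. *Krt18* was at 1.38, 1.56, 1.77 and 2.02 CPM in KO SH and at 4.11, 15, 7.1 and 5.53 CPM in KO MI 1, 2, 3 and 7 (log2 fold change 2.24, SE 0.32, adjusted p = 0.000769 by edgeR). *Krt8*, its keratin partner, rose by 2.19 and *Sema3d* by 0.63. *Bnc1*, a mesothelial transcription factor, was at 0.722, 1.13, 0.938 and 0.812 CPM and 0.711, 2.34, 4.12 and 1.76 CPM (log2 fold change 1.32, SE 0.37, adjusted p = 0.0306 by edgeR), and without KO MI 3 at 0.83 (adjusted p = 0.147, edgeR). The list's calls fell to 3 without KO MI 3, to 5 without KO SH 1 and to 4 without KO SH 4. *Wt1* and *Tbx18*, transcription factors of the epicardium, had log2 fold changes of 0.37 and 0.33 and were not called.

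None of 14 endothelial genes was a DEG (median -0.18), though 4 lay below KO SH in every KO MI library, against 7.05% of all genes. *Tie1*, an endothelial receptor, was at 45.7, 46.9, 48 and 48.9 CPM and 39.97, 33, 36.8 and 33.6 CPM (log2 fold change -0.40, SE 0.07, adjusted p = 0.00226 by edgeR), short of the fold change limit. Of 10 mural genes only *Cnn1*, calponin of smooth muscle, was called, at 1.01 to 1.54 CPM and 2.17, 10.9, 3.1 and 2.48 CPM (log2 fold change 1.93, SE 0.45, adjusted p = 0.0111 by edgeR), or 1.07 (adjusted p = 0.0366, edgeR) without KO MI 2. This 1 call of 10 compares with 5.13% of all genes. The mural list had a median of -0.18, and 5 of its 10 genes lay below KO SH in every KO MI library, against the same 7.05%. Of 10 hypoxia-responsive genes only *Ankrd37* was called, against the same 5.13% (log2 fold change 0.71, SE 0.23, adjusted p = 0.0515 by edgeR). It lost the call in 4 of the 8 fits without 1 library, for example at 0.56 (adjusted p = 0.13, edgeR) without KO MI 1.

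**Figure D4:**
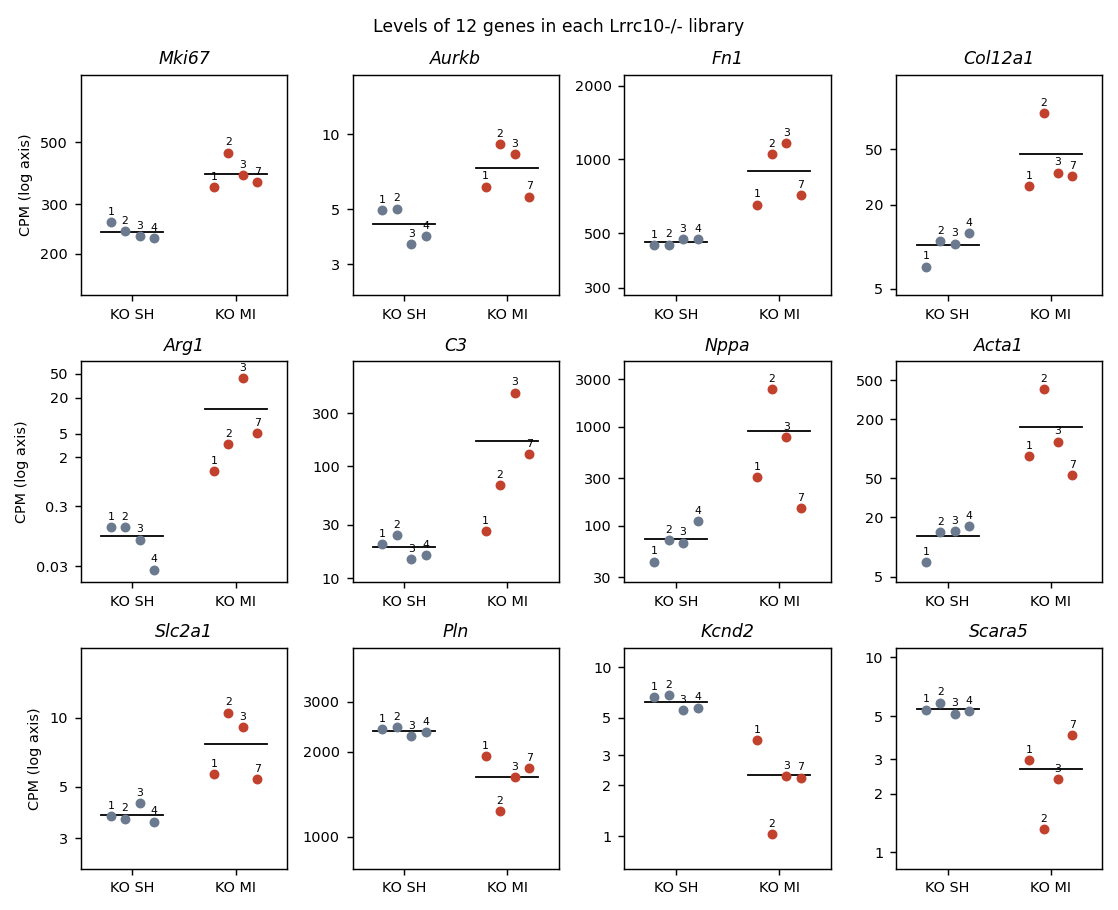
Levels of 12 genes (CPM, log axis; the axis range differs by panel) in the KO SH (grey) and KO MI (red) libraries; each point is 1 library, the digit is its replicate number and the bar is the group mean. In each of these genes the 2 groups do not overlap, and within KO MI the order of the libraries differs between genes, KO MI 2 being highest for Nppa, Acta1 and Col12a1 and KO MI 3 for Arg1 and C3.

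Stress and fetal genes of the myocardium rose in 8 of 12 cases, against 5.13% of all genes (median 0.80), with mean levels of 0.61, 1.93, 0.82 and 0.48 in KO MI 1, 2, 3 and 7. *Nppa* was at 43.2, 71, 67.2 and 112 CPM in KO SH and at 307, 2395, 776 and 150.2 CPM in KO MI 1, 2, 3 and 7 (log2 fold change 3.63, SE 0.63, adjusted p = 0.00235 by edgeR). *Nppa*, which encodes the atrial natriuretic peptide, lies on chromosome 4 of GRCm39 from 148085091 to 148086583 on the + strand. No KO MI library overlapped KO SH, KO MI 2 was the highest and KO MI 7 the lowest. *Nppb* was at 15.3, 23.2, 23.3 and 24.2 CPM and 33, 147, 37.7 and 23.8 CPM (log2 fold change 1.5, SE 0.40, adjusted p = 0.0221 by edgeR); KO MI 7 lay within the sham range, and without KO MI 2 the log2 fold change was 0.55 (adjusted p = 0.0568, edgeR). *Acta1* was at 7.06, 14.3, 14.4 and 16.5 CPM in KO SH and at 83.7, 410.1, 119 and 53.8 CPM in KO MI 1, 2, 3 and 7 (log2 fold change 3.68, SE 0.52, adjusted p = 0.000757 by edgeR). *Acta1* is the skeletal muscle actin that the fetal and stressed heart also uses, and the part of skeletal muscle RNA in its values was not tested. *Xirp2*, a protein of the intercalated disc, was at 184, 236, 266 and 238 CPM and 472, 2485, 552 and 203 CPM (log2 fold change 2.01, SE 0.48, adjusted p = 0.0127 by edgeR), or 0.82 (adjusted p = 0.0308, edgeR) without KO MI 2.

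*Ankrd1*, a stretch-responsive nuclear protein, was at 228, 249, 344 and 323 CPM and 372, 1001, 363 and 382 CPM (log2 fold change 0.89, SE 0.25, adjusted p = 0.0325 by edgeR), and without KO MI 2 it had 0.38 (adjusted p = 0.105, edgeR). *Fhl1* rose by 0.86, and without KO MI 2 was at 0.43 (adjusted p = 0.00289, edgeR). Without that heart 4 of the list's 8 calls stood, and 5 without KO MI 2 and 7. *Myh7*, the fetal and slow myosin heavy chain, was at 1199, 971, 1248 and 1206 CPM and 885, 1062, 775 and 2953 CPM (log2 fold change 0.30, SE 0.47, adjusted p = 0.756 by edgeR). It was high in KO MI 7 alone, and without that library the log2 fold change was -0.35 (adjusted p = 0.623, edgeR). *Tnni1*, the slow skeletal troponin I, was likewise highest in KO MI 7, at 215 CPM against 106 to 122 CPM in the other KO MI hearts. The skeletal muscle sum was also highest in KO MI 7, and its part in these values was not tested.

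*Nppa* is also a gene of the atria, and the level of atrial genes differed between the hearts. *Myl4*, the atrial light chain, was at 2.25, 4.7, 6.09 and 10.6 CPM in KO SH and 28.8, 30.1, 66.2 and 8.09 CPM in KO MI (log2 fold change 2.51, SE 0.78, adjusted p = 0.0464 by edgeR), and it lost the call in 4 of the 8 fits without 1 library, with 1.93 (adjusted p = 0.153, edgeR) without KO MI 3. *Myl7* was at 0.0677, 0.432, 0.750 and 0.969 CPM and 3.72, 2.09, 9.6 and 0.0534 CPM, and *Sln*, the atrial regulator of the calcium pump, at 0, 0.0810, 0.0834 and 0.497 CPM and 0.914, 0.492, 2.94 and 0.240 CPM; neither was called. *Dkk3* rose by 1.14. With these 2 calls of 5 genes, against 5.13% of all, the list held 5 calls without KO MI 7 or without KO MI 2 and 7, and 1 without KO MI 3, KO SH 2 or KO SH 3. Without KO MI 7, *Myl7* had 3.21 (adjusted p = 0.0498, edgeR) and *Sln* 3.18 (adjusted p = 0.0627, edgeR). KO MI 3 was the highest of the 4 for all 5 atrial genes, whereas KO MI 2 was the highest for *Nppa*, and the part of atrial RNA in the *Nppa* values was not tested.

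The working sarcomere gave no call. None of its 17 genes was a DEG (median -0.03, range -0.45 to 0.37). In every KO MI library 4 of the 17 lay above KO SH, against 7.44% of all genes, and 2 below, against 7.05%. The gene with the smallest p was *Myl2*, the ventricular light chain, at 1355, 1466, 1398 and 1350 CPM and 1722, 1797, 1566 and 1504 CPM (log2 fold change 0.24, SE 0.066, adjusted p = 0.0254 by edgeR). *Myh6*, the adult myosin heavy chain, had a log2 fold change of -0.13 and *Ttn*, titin, of -0.015. None of 14 cardiac transcription factor genes was called either (median -0.14), the smallest p being that of *Mef2a* (log2 fold change -0.19, SE 0.057, adjusted p = 0.0394 by edgeR).

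Calcium handling genes had 1 call in each direction. *Pln*, phospholamban, the inhibitor of the sarcoplasmic calcium pump, was at 2410, 2443, 2269 and 2348 CPM and 1927, 1233, 1628 and 1745 CPM (log2 fold change -0.54, SE 0.10, adjusted p = 0.00263 by edgeR), with KO MI 2 the lowest and no overlap. *Slc8a1*, the sodium-calcium exchanger, was at 361, 402, 384 and 372 CPM and 505, 661, 503 and 520 CPM (log2 fold change 0.53, SE 0.089, adjusted p = 0.00206 by edgeR). Both were short of the limit without KO MI 2, at -0.42 and 0.42. They were the only DEGs of 13 calcium handling genes (median -0.25), against 5.13% of all genes higher and 2.01% lower. In every KO MI library 5 of the 13 lay below KO SH, against 7.05% of all genes, and 1 above, against 7.44%. *Atp2a2*, the pump itself, and *Ryr2*, the release channel, had log2 fold changes of -0.38 and -0.25 and adjusted p of 0.00931 and 0.0394 by edgeR, and were below the fold change limit.

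Of 24 ion channel genes 5 fell and 1 rose (median -0.21), against 2.01% and 5.13% of all genes, and 10 of the 24 lay below KO SH in every KO MI library against 7.05% of all. *Kcnd2* was at 6.61, 6.8, 5.57 and 5.76 CPM in KO SH and at 3.68, 1.02, 2.27 and 2.22 CPM in KO MI 1, 2, 3 and 7 (log2 fold change -1.43, SE 0.24, adjusted p = 0.00181 by edgeR). *Kcnd2* and *Kcnd3* form the channel of the transient outward current, and *Kcnd3* fell by 0.85 on the log2 scale. In *Kcnd2* the groups did not overlap, and KO MI 2 was the lowest library. *Hcn2*, a pacemaker channel gene, was at 10.8, 12, 12.2 and 12 CPM and 9.25, 4.35, 8.76 and 4.89 CPM (log2 fold change -0.78, SE 0.17, adjusted p = 0.00815 by edgeR). It was low in KO MI 2 and 7, without which it had -0.39 (adjusted p = 0.00324, edgeR). Of 14 neurohormonal receptor genes 2 fell, *Adra1b*, an α-adrenergic receptor (log2 fold change -0.61, SE 0.19, adjusted p = 0.0468 by edgeR), and *Agtr1a*, the angiotensin II receptor (log2 fold change -0.52, SE 0.10, adjusted p = 0.00396 by edgeR). Both were below the limits without KO MI 2, at -0.40 (adjusted p = 0.0722, edgeR) and -0.43 (adjusted p = 0.0108, edgeR). *Adra1b* was lost also without KO SH 1 (-0.51), and *Agtr1a* without KO MI 3 (-0.50) or KO SH 2 (-0.47).

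None of 25 genes of fatty acid uptake and oxidation was a DEG, yet 23 had a log2 fold change below 0 (median -0.17) and 10 lay below KO SH in every KO MI library, against 7.05% of all genes. Without KO MI 7, or without KO MI 2 and 7, 2 of the 25 were called lower. *Mlycd*, malonyl-CoA decarboxylase, had the smallest p of them, at 24.7 to 27 CPM and 18.4 to 22.2 CPM (log2 fold change -0.35, SE 0.065, adjusted p = 0.00284 by edgeR). None of 25 nuclear genes of oxidative phosphorylation (median -0.032) and none of 15 of the citrate cycle (median -0.053) was called, the smallest p being those of *Ndufv1* (-0.26) and *Idh3g* (-0.26). Mean levels in KO MI 1, 2, 3 and 7 were 0.14, -0.027, 0.022 and -0.35 for oxidative phosphorylation. For the citrate cycle they were 0.13, -0.021, 0.041 and -0.33. Without KO MI 7 the medians were 0.059 and 0.052. Among 13 mitochondrially encoded genes *mt-Nd3* was called (log2 fold change -0.56, SE 0.18, adjusted p = 0.0591 by edgeR), but in only 3 of the 8 fits without 1 library, with -0.47 (adjusted p = 0.18, edgeR) without KO MI 2. Of 14 PPAR and ERR regulators and targets 1 fell and 1 rose, against 2.01% and 5.13% of all genes. *Ucp3*, a mitochondrial carrier, was at 38.1, 26.3, 33.5 and 23.6 CPM and 13.2, 7.7, 8.31 and 26.3 CPM (log2 fold change -1.15, SE 0.27, adjusted p = 0.0127 by edgeR), and *Oxct1*, which lets the heart use ketone bodies, at 161, 189, 173 and 175 CPM and 324, 406, 354 and 140.5 CPM (log2 fold change 0.81, SE 0.20, adjusted p = 0.0148 by edgeR). In both the change stood in KO MI 1, 2 and 3, while KO MI 7 lay within the sham range for *Ucp3* and below it for *Oxct1*. The list held 2 higher and 6 lower calls without KO MI 7, and 2 and 4 without KO MI 2 and 7.

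Glycolytic genes rose in 5 of 19 cases, against 5.13% of all genes (median 0.36), and the list stood above the sham hearts in the same 3, with mean levels of 0.34, 0.56, 0.42 and -0.093 in KO MI 1, 2, 3 and 7. *Slc2a1* was at 3.74, 3.64, 4.25 and 3.54 CPM in KO SH and at 5.67, 10.5, 9.06 and 5.42 CPM in KO MI 1, 2, 3 and 7 (log2 fold change 1.02, SE 0.19, adjusted p = 0.00295 by edgeR). *Slc2a1* encodes the fetal glucose transporter GLUT1, and it was above KO SH in all 4 hearts. *Pgam1*, phosphoglycerate mutase, was at 33.9, 37.9, 35 and 32.2 CPM and 58.3, 102, 74.3 and 37.4 CPM (log2 fold change 0.97, SE 0.20, adjusted p = 0.00554 by edgeR), with KO MI 7 within the sham range. *Pfkp* rose by 0.61 and *Eno1* by 0.56, with 0.38 and 0.41 without KO MI 2, under the limit. The list held 2 calls without KO MI 2 and 9 without KO MI 7. Cholesterol synthesis genes followed the same order, with 6 of 18 higher against the same 5.13% (median 0.23), levels of 0.25, 0.70, 0.35 and -0.20 and no call without KO MI 2. *Idi1*, at 10.5, 9.5, 8.69 and 9.11 CPM in KO SH and 13.7, 23.7, 15.6 and 7.96 CPM in KO MI, *Mvk* and *Fdps*, enzymes of the pathway's early steps, rose by 0.70, 0.66 and 0.64 and had 0.40, 0.48 and 0.40 without KO MI 2. Of 15 genes of branched-chain amino acid oxidation 1 fell, against 2.01% of all genes. It was *Bckdha* (log2 fold change -0.54, SE 0.13, adjusted p = 0.0117 by edgeR), which had -0.44 (adjusted p = 0.037, edgeR) without KO MI 2 and -0.49 without KO SH 4.

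Of 18 antioxidant genes 3 rose, against 5.13% of all genes, or 5 without KO MI 7. *Slc7a11*, the cystine importer, was at 0.0451, 0.0810, 0.125 and 0.131 CPM and 0.122, 1.99, 2.46 and 3.1 CPM (log2 fold change 4.28, SE 0.74, adjusted p = 0.00217 by edgeR), with KO MI 1 within the sham range. *Gpx3*, a secreted glutathione peroxidase, rose by 0.90 and *Nqo1* by 0.51, which held in 4 of the 8 fits without 1 library and was 0.43 (adjusted p = 0.0772, edgeR) without KO MI 2. Of 14 integrated stress response genes 5 lay above KO SH in every KO MI library, against 7.44% of all genes. The 3 that rose, against 5.13% of all genes, were the amino acid and one-carbon enzymes *Mthfd2* (0.88), *Asns* (0.75) and *Psat1* (0.75). *Atf3* was at 3.02 to 8.64 CPM and 2.21 to 7.45 CPM. Of 16 heat shock genes 15 had a log2 fold change above 0, and 4 lay above KO SH in every KO MI library, against 7.44% of all genes. The small chaperones *Hspb1* (0.54) and *Hspb6* (0.51) rose, 2 of the 16 against 5.13% of all genes. Neither stood without KO MI 2 (0.38 and 0.39), nor *Hspb6* without KO SH 1 (0.47) or KO SH 2 (0.49).

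Among 18 immediate early genes the NR4A nuclear receptors diverged. *Nr4a1* was at 4.2, 6.02, 5.71 and 7.36 CPM in KO SH and at 2.62, 4.0, 2.27 and 3.93 CPM in KO MI 1, 2, 3 and 7 (log2 fold change -0.87, SE 0.22, adjusted p = 0.0195 by edgeR). *Nr4a3* was at 1.78, 3.13, 2.79 and 2.98 CPM and 3.43, 7.03, 4.81 and 3.77 CPM (log2 fold change 0.84, SE 0.27, adjusted p = 0.0495 by edgeR), above KO SH in every heart, but without KO MI 2 it had 0.59 (adjusted p = 0.213, edgeR) and without KO SH 1 0.69. *Jun* was at 125, 133, 88 and 172 CPM and 75.7, 58.4, 66.2 and 117 CPM (log2 fold change -0.71, SE 0.19, adjusted p = 0.023 by edgeR), and the list's median was -0.069. Of 16 clock genes 1 fell, against 2.01% of all genes. It was *Hlf*, at 36.3 to 38.8 CPM and 28.2, 15.3, 25.5 and 27.5 CPM (log2 fold change -0.64, SE 0.13, adjusted p = 0.005 by edgeR), or -0.48 and under the limit without KO MI 2. None of 16 Hippo-YAP genes was called (median -0.033, range -0.22 to 0.15), with the smallest p for *Vgll4* (log2 fold change -0.22, SE 0.074, adjusted p = 0.0689 by edgeR).

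Of 12 genes of neuregulin and insulin-like growth factor signaling 2 rose, as did 2 of 12 imprinted growth genes, against 5.13% of all genes. *Nrg1*, the endothelial ligand that drives cardiomyocyte growth, was at 5.41, 5.07, 4.75 and 4.56 CPM and 7.42, 19, 8.56 and 6.44 CPM (log2 fold change 1.07, SE 0.26, adjusted p = 0.0155 by edgeR), or 0.60 (adjusted p = 0.0406, edgeR) without KO MI 2. Its receptor genes *Erbb2* and *Erbb4* had log2 fold changes of -0.15 and -0.41 and were not called. *Igfbp3* rose by 1.03. Of 12 imprinted growth genes *H19* (log2 fold change 0.51, SE 0.10, adjusted p = 0.00453 by edgeR) and *Zim1* (log2 fold change 0.86, SE 0.28, adjusted p = 0.0595 by edgeR) rose, and both were highest in KO MI 7, where *Zim1* was at 13.2 CPM against 3.67 to 4.36 CPM in KO SH. Without KO MI 7 neither was called (0.39 and 0.43), and *H19* was also short without KO SH 2 (0.47) and *Zim1* without any 1 KO SH library.

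Lists of other tissues were read in the same way. Of 22 skeletal muscle genes 13 were tested and 11 were higher in KO MI (median 3.06), against 5.13% of all genes. Without KO MI 2 and 7 the median was 0.50 and 2 of 10 tested were called. Without KO SH 4, 7 of 11 tested were called. *Myh1*, a fast myosin heavy chain, was at 0.0226, 0.0540, 0.0209 and 0.183 CPM and 0.0406, 4.67, 0.327 and 8.73 CPM (log2 fold change 5.62, SE 1.21, adjusted p = 0.00745 by edgeR), and *Ryr1*, the skeletal release channel, at 0.0677, 0.108, 0.104 and 0.0786 CPM and 0.102, 3.38, 0.270 and 8.47 CPM (log2 fold change 5.03, SE 1.12, adjusted p = 0.00915 by edgeR). Without KO MI 2 and 7 they had 1.43 (adjusted p = 0.419, edgeR) and 1.03 (adjusted p = 0.527, edgeR), and *Atp2a1*, the skeletal calcium pump, 0.77 (adjusted p = 0.676, edgeR) in place of 4.43. Reads of the myosin heavy chain genes can be shared between these near copies. Of the defining genes, *Myf6* and *Tnnc2* were at 0 in all KO SH libraries and in KO MI 1, and *Pvalb* at 0 in all 8.

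Erythroid genes were higher for 7 of 8 tested (median 0.83), against 5.13% of all genes, for 3 without KO MI 2 and for 4 without KO SH 3. Their rise lay in KO MI 1, 2 and 3, with summed levels of 957, 1147, 751 and 354 CPM in KO MI 1, 2, 3 and 7 against 417 to 498 CPM in KO SH. *Slc4a1*, the red cell anion exchanger, was at 3.25, 2.27, 3.08 and 2.75 CPM and 7.8, 13.6, 8.06 and 2.0 CPM (log2 fold change 1.48, SE 0.34, adjusted p = 0.0104 by edgeR), with KO MI 7 below the sham range. The near copies *Hba-a1* and *Hba-a2*, whose reads cannot be told apart, rose by 0.86 and 0.79, and *Hba-a2* had 0.57 (adjusted p = 0.138, edgeR) without KO MI 2. The hearts with high erythroid sums were those with high glycolysis and cholesterol levels, and the part of blood in those lists was not tested. *Ucp1*, a marker of brown fat, was at 3.04 CPM in KO MI 7 against 0.116 CPM or less in the other 7 KO libraries. *Cidea*, the only 1 of 7 adipocyte genes tested, was at 4.87 to 5.71 CPM in KO SH and 4.85 to 7.74 CPM in KO MI. It was not called, and its level above the KO SH mean was 0.53 in KO MI 2 and 0.49 in KO MI 7 on the log2 scale. Of 9 lung epithelial genes only *Ager* was tested (0.40, not called), and *Scgb1a1* was at 0 in all 8 libraries. Of 4 thymocyte, 5 platelet and 6 nerve genes tested, 1 in each list was a DEG, which fell, against 2.01% of all genes. These were *Ccr9* (-0.74), *Itga2b* (-0.55) and *Dbh* (-1.13), of which *Itga2b* lost the call without KO MI 3, KO SH 2 or KO SH 3 (-0.56, -0.52 and -0.46). Log2 fold changes were above 0 for 3 of the 4 thymocyte genes (median 0.69), 3 of the 5 platelet genes (median 0.27) and 1 of the 6 nerve genes (median -0.56). Of 3 cartilage genes tested none was called, with *Sox9* at 0.37.

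Genes that were near absent from the sham hearts fall outside the comparison, and 1103 genes reached the minimum count in KO MI but not in KO SH, against 572 the other way. The 6 protein-coding ones with the largest KO MI counts were *Myh3*, *Spp1*, *Chil3*, *Mybpc1*, *Retnla* and *Mmp12*. *Spp1*, osteopontin of wound macrophages, was at 0, 0.108, 0.0417 and 0.0524 CPM in KO SH, where its 8 counts put it just outside the minimum, and at 4.27, 9.82, 11.6 and 14.2 CPM in KO MI. *Camp*, with 10 counts in KO SH, lay just inside. *Mmp12*, macrophage elastase, was at 1.67, 4.51, 2.71 and 10.1 CPM in KO MI and had counts in 1 sham library only, at 0.0451 CPM. Both were above their sham levels in all 4 hearts, whereas *Chil3*, with 0.163, 0.177, 34.5 and 0.321 CPM, and *Retnla*, with 0.0203, 0.0984, 16.7 and 0.107 CPM, were high in KO MI 3 alone. All 6 genes were chosen by low KO SH and high KO MI counts, which favours levels above sham. *Chil3* and *Retnla* mark alternatively activated macrophages, as *Arg1* does, and *Arg1* too was highest in that heart. *Myh3* and *Mybpc1* are skeletal muscle genes, at 0.122, 12.6, 2.08 and 34.3 CPM and 0.0203, 9.9, 0.462 and 15.7 CPM.

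The response of the *Lrrc10*-/- hearts was then set beside that of WT hearts, whose libraries are all different ones. Of 20159 genes with the minimum count in all 4 groups, 426 were higher in WT MI than in WT SH (2.11%) and 130 lower (0.645%). Of the 1056 higher DEGs of the KO hearts among these genes, 229 were also higher DEGs in WT, which is 21.7% of the KO and 53.8% of the WT genes. Downward, 34 of 413 were shared (8.23% and 26.2%), and 2 genes were DEGs in opposite directions. The median log2 fold change of the higher KO DEGs was 0.82 in KO and 0.39 in WT hearts, and of the lower ones -0.70 and -0.23. The KO values carry the choice of the genes, which the WT values do not, so the gap between them is a description only.

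**Figure D5:**
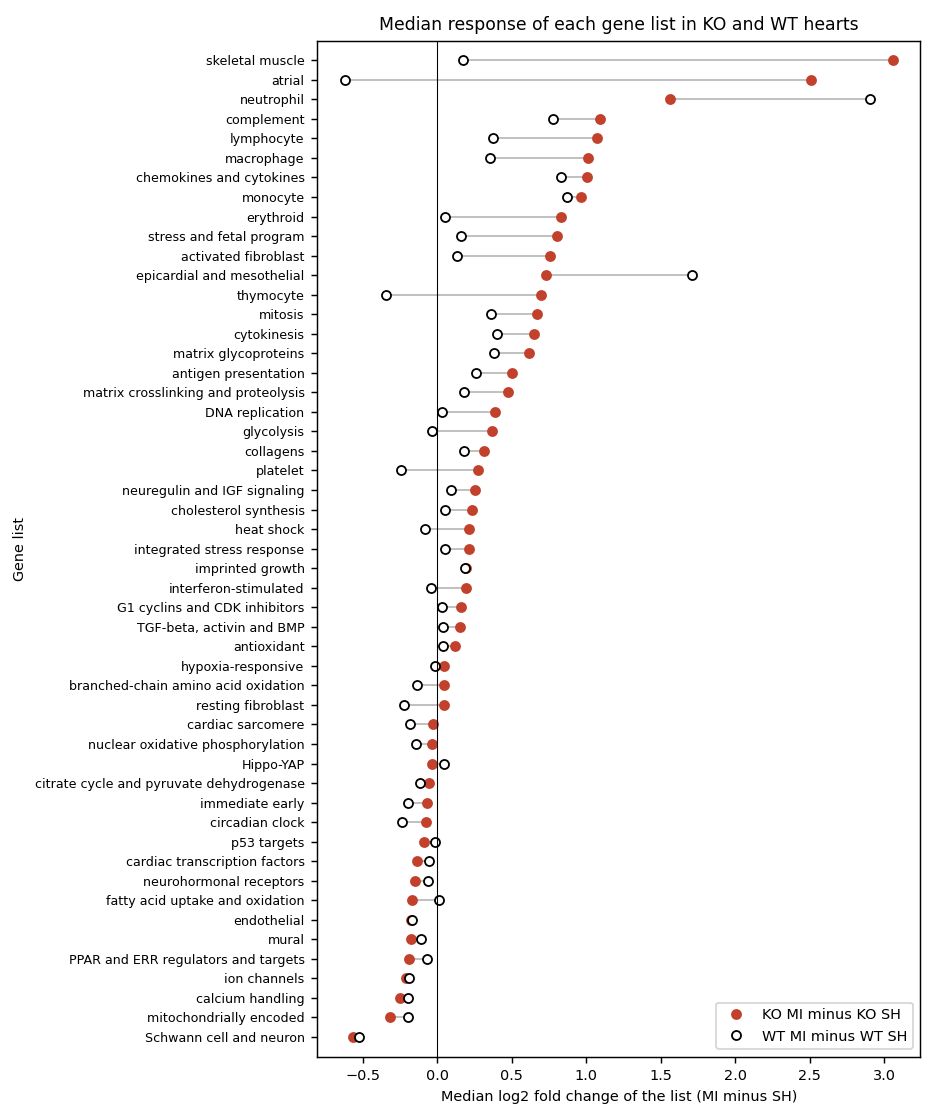
Median log2 fold change of MI minus SH for each gene list with at least 4 genes tested in both genotypes, in KO hearts (red) and WT hearts (open); a grey line joins the 2 medians of a list. The skeletal muscle, atrial, macrophage, stress and erythroid medians are larger in KO and the neutrophil and epicardial medians larger in WT.

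List by list, the WT medians were lower for mitosis (0.36), cytokinesis (0.40), DNA replication (0.031), activated fibroblasts (0.13), macrophages (0.35), stress genes (0.16) and glycolysis (-0.033). They were higher for neutrophils (2.91, with 7 of 7 genes called in WT) and for the epicardium (1.71, with 10 of 14 called). These differences between medians were not tested as such. The sham hearts did not start level, since the summed level of the mitosis list was 568 to 638 CPM in KO SH and 665 to 833 CPM in WT SH, against 841 to 1138 CPM in KO MI and 830 to 972 CPM in WT MI. For glycolysis the sums were 2629 to 2779 CPM in KO SH and 3063 to 3483 CPM in WT SH. Neutrophil sums were 3.48 to 4.5 CPM in KO SH and 1.525 to 2.25 CPM in WT SH. Post-MI they overlapped, at 7.15 to 15.6 CPM in KO and 7.28 to 24.7 CPM in WT hearts. Activated fibroblast sums were 203 to 253 CPM in KO SH and 251 to 392 CPM in WT SH. They too overlapped post-MI, at 336 to 445 CPM in KO and 294 to 442 CPM in WT hearts. Epicardial sums were 98.2 to 109 CPM in KO SH and 86.8 to 100.2 CPM in WT SH. *Mki67* had a log2 fold change of 0.18 in WT hearts, *Acta1* of 0.72, *Nppa* of 1.13, and *Slc2a1* of 0.32, none of them called. The WT atrial median was -0.62. Atrial genes summed to 92.3 CPM in WT SH 2, against 13.8 to 28.5 CPM in the other WT SH libraries and 18.15 to 48.1 CPM in WT MI. The part of atrial RNA in the WT *Nppa* value was not tested. *Kcnd2* was a lower DEG in WT hearts too, at -0.71. In none of the 54 lists did a gene other than *Nr4a3* pass the test of the difference between the responses.

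That test, the KO response minus the WT response in the same edgeR model, called 5 of 20159 genes (0.0248%), with 2737 at an unadjusted p under 0.05. *Nr4a3* rose in KO hearts and fell in WT hearts, where it was at 23.8, 27.2, 11.8 and 19.2 CPM in WT SH and 5.95, 4.54, 3.73 and 4.22 CPM in WT MI, a difference of 3.0 on the log2 scale (SE 0.36, adjusted p = 0.00309 by edgeR). Its sham levels did not start level either. Every KO SH library, given above, was below every WT SH library, while the KO MI and WT MI levels overlapped. *Sik1*, a kinase induced by cAMP, fell in WT (-0.98) and had -0.14 in KO, a difference of 0.84 (adjusted p = 0.0382, edgeR). The unnamed gene model *Gm43605* differed by 1.68, *Tomm40*, the import pore of the mitochondrial outer membrane, by 0.63 and *Bhlhb9* by -0.51. For *Tomm40* and *Bhlhb9* the 2 genotypes went opposite ways, at 0.36 in KO against -0.27 in WT and at -0.26 against 0.25. The number called was 840 without KO MI 7, 173 without WT SH 4, 368 without KO MI 2 and 7 and 290 with DESeq2.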

How the data were processed

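Ventricular RNA of 16 mice was sequenced from strand-specific libraries, and the authors deposited RSEM expected counts per gene, which were rounded to whole numbers here. The submitters' processing notes name bcl2fastq 2.17, FastQC, cutadapt 3.4, HISAT2 2.2.1, RSEM 1.1.17, DESeq2 and GRCm39; the study's methods name other trimming and alignment tools, and the annotation release was not given in the sources used here. Reads that fit near copies were thus shared by an estimate. No sample column was left unused (0 columns). Of the 51912 genes, 47772 were matched by ID to GENCODE M39, which gave symbols, positions and promoters on GRCm39.

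All 16 libraries were fitted in 1 model with edgeR 4.0.16 in R 4.3.3 (TMM factors, quasi-likelihood F-test) and groups were compared by contrasts. DEGs passed an adjusted p of 0.1 (Benjamini-Hochberg) and a log2 fold change of 0.5 in either direction. SE is the absolute log2 fold change divided by the square root of F. Principal components used log2 CPM with a prior count of 2. The difference between responses was tested as an interaction contrast, over genes whose counts summed to 10 or more in each of the 4 groups. The 4 mice of a group were taken as replicates from the labels. Leaving out each library, other normalizations, filters, DESeq2 1.42.0 and other models were tried, and the script was tested on simulated counts.

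The 54 gene lists and the comparison were chosen with earlier results of these data known. Named genes were the 10 protein-coding DEGs with the largest rise and fall (mean of at least 1 CPM, no overlap), up to 4 DEGs of each list by p (or the member with the smallest p), the called differences between the responses, a set of reference genes (Lrrc10, Nppa, Nppb, Myh7, Acta1, Ankrd1, Aurkb, Ccnb1, Cdc20, Mki67, Postn, Col1a1, Timp1 and Spp1) and up to 6 genes under the minimum in KO SH. Other genes were named after their values were seen. Some genes that the rule picks are not reported here.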

Additional observations from a re-analysis of the deposited data

Results flagged for a closer look

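In groups of 4 libraries, a highest or lowest library was marked where its gap to the nearest other, as a share of the group's range, exceeded Dixon's limit, which chance does in about 1 in 20 groups, and 14 of 180 groups of named genes and list levels were marked. Within KO MI, replicate 3 stood apart for Arg1 (42.6 CPM) and Col6a5 (155 CPM). Replicate 2 stood apart for Cd247 (0.374 CPM), Nppb (147 CPM), Ankrd1 (1001.31 CPM) and the mean level of the ion channel list (-0.53 on the log2 scale). Replicate 7 stood apart for Myh7 (2952.58 CPM), for the p53 targets (-0.13) and for the hypoxia-responsive list (-0.08). Within KO SH, replicate 1 stood apart for Sik1 (15.4 CPM) and Nppb (15.3 CPM), and replicate 3 for C1qtnf3 (0.292 CPM), the cardiac sarcomere list (0.04) and the imprinted growth list (0.03).

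The response differed between KO and WT hearts, by the edgeR test of the difference itself, for Nr4a3 (KO response minus WT response 3.0 on the log2 scale), Gm43605 (1.68), Sik1 (0.84), Tomm40 (0.63) and Bhlhb9 (-0.51).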

How the results depend on the processing

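With no minimum fold change 3479 genes were called, 2031 higher and 1448 lower. Leaving out 1 library at a time, controls included, gave 893 to 2188 DEGs, 705 to 1330 higher and 188 to 858 lower; the lowest counts were those without KO MI 2 and the highest those without KO MI 7. The difference between the responses gave 290 genes with DESeq2, 39 with no filter, 12 with a robust fit, 8 with a term for libraries with high Xist, 368 without KO MI 2 and 7, and 2 to 840 without 1 library, against 5. The cause was not tested.

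The replicate numbers of the labels were not taken as pairs. Deviations of same-numbered libraries correlated by 0.071, 0.057 and 0.020 in KO, where KO MI 7 has no partner, and by -0.039 to 0.020 in WT. Such values over all genes cannot show whether same-numbered mice shared a litter or a day. With the replicate block the lower DEGs numbered 791 and the differences between the responses 690, against 419 and 5 in the main fit. Myh7 ranged from -0.35 to 0.50 without 1 library and changed sign without KO MI 7 (-0.35), without KO MI 2 and 7 (-0.49) and under the block (-0.38), and Cidea without KO MI 2 and 7 (-0.060), none of them called. Of 152 named genes, DESeq2, its size factors in edgeR, filterByExpr and the Xist term changed no call, while 11 lost the call with only the KO libraries in the fit, 29 without KO MI 2 and 10 without KO MI 3. Values near the floor of 3 counts are limited by depth.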
